A study of Mus musculus with 95 samples.

Results

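The genes described here are the axon guidance ligands and receptors, taken by symbol as the class 3 to 7 semaphorins, the plexins, the ephrins and Eph receptors, the netrins 1 to 4, the Slits, the Robo receptors and the Unc5 receptors. Of 25407 symbols in the files, 64 carried such a name, and 60 had an FPKM (read fragments scaled to transcript length and to the size of the library) above 0 in at least 5 of the 95 libraries. They comprised 17 semaphorins, 13 Eph receptors, 9 plexins, 8 ephrins, 4 Robo receptors, 4 Unc5 receptors, 3 Slits and 2 netrins. The 4 symbols left out were Epha5, Sema3b, Sema3f and Sema6c. Expression was measured by RNA-Seq in sciatic nerve (SCN), dorsal root ganglia (DRG), isolated kidney glomeruli (Glom) and kidney cortex of male mice of the strain BKS.Cg-m +/+ Leprdb/J at 16 weeks of age. Diabetes in db/db mice comes with obesity, since both copies of their leptin receptor gene are defective, and db/+ controls carry a single defective copy. Mice of both genotypes were given either no drug or pioglitazone at 15 mg/kg for 11 weeks (db/+ PIO and db/db PIO), an agonist of the nuclear receptor PPARγ that is used to treat insulin resistance. There were 6 libraries in 15 of the 16 groups and 5 in DRG db/db.

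Guidance cues steer growing axons and migrating cells by attraction or repulsion. Ephrins are held in the membrane and bind Eph receptor tyrosine kinases on a neighbouring cell, with signalling in both directions, whereas semaphorins act mainly through plexins, Slits through Robo receptors, and netrins through DCC and Unc5 receptors. The same families are used outside the nervous system by endothelium, epithelium and immune cells, and in the adult kidney and nerve they are known from vessels, podocytes, tubules and Schwann cells.

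Many entries were exactly 0. Among the 60 genes this held for 44.4% of entries in SCN, 44.4% in DRG, 46.2% in Glom and 35.3% in cortex. Actb was listed at 0 in 74 of 95 libraries, Gapdh in 34 and Tbp in 95, so that a 0 was read as a missing value and not as a level. All values below are of the libraries above 0, and the number of reads behind each is unknown. Comparisons used log2(FPKM + 1) in limma, a scale on which the change of a gene near 1 FPKM is understated, and a gene was tested in a tissue if 5 or more libraries reached 1 FPKM. Of the 60 guidance genes 30 passed this filter in SCN, 33 in DRG, 31 in Glom and 26 in cortex, whereas 9, 6, 11 and 6 were at 0 in every library of the tissue. Nothing in the labels ties libraries of different tissues to one mouse.

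In control mice Ntn4 and Ephb4 were among the 5 guidance genes of highest median level in SCN, Glom and cortex, whereas the 5 of DRG shared only Sema3g with another tissue, as the heat map of median levels shows. In SCN db/+ the highest median belonged to Ntn1, a secreted netrin, with 30.2 FPKM, followed by Ntn4 with 15.4, the receptor Ephb4 with 14.6, Plxna1 with 11.5 and Slit3 with 10.6. In DRG db/+ the order was Sema3g with 14.2, Plxna4 with 11.2, Efnb2 with 10.5, Ephb6 with 10.4 and Efnb1 with 9.59. In Glom db/+ it was Ntn4, a basement membrane netrin, with 43.6, then Ephb4 with 28.2, Efna1 with 26.6, Ephb1 with 24.5 and Sema7a with 14.1. In cortex db/+ it was Efna1 with 26.1, Ntn4 with 17.6, Sema3g with 12.8, Sema3c with 12.2 and Ephb4 with 11.5. FPKM is a level per transcript length, so that genes can be set side by side. The ranges of neighbours in each of these orders overlapped, except that in DRG the lowest Sema3g value (12.2) was above the highest of Plxna4 (11.4). The orders rest on genes with at least 3 values in the group. Genes outside these orders could be higher where they had a value. Over the 4 arms together, the values above 0 of Efnb2 had a median of 66.6 FPKM in 14 Glom libraries. In SCN the median was 38.6 for Sema7a in 7 libraries and 114.5 for Sema3g in 6.

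**Figure D1:**
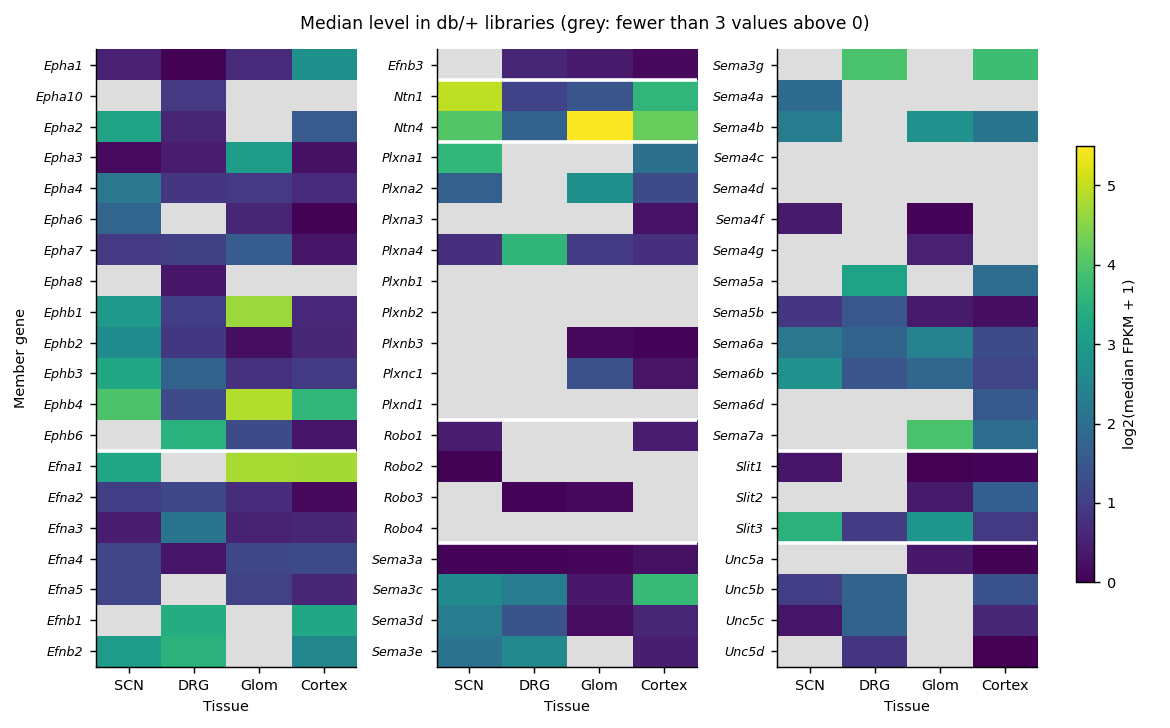
Median level of the 60 axon guidance genes in db/+ libraries of SCN, DRG, Glom and cortex, as log2(median FPKM + 1) in colour, with white lines between families and grey where fewer than 3 libraries were above 0. Among the cells that are not grey, the brightest is Ntn4 in Glom (median 43.6 FPKM), and Robo2 and Robo4 are grey in 3 or more of the tissues.

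Several receptors of Slits and semaphorins were above 0 in few libraries. Robo4, the Robo receptor of endothelium, was above 0 in 9 libraries, all from DRG, Robo2 in 20 libraries, all from SCN, and Robo1 in none of the 24 Glom libraries. Plxnb1, Plxnb2 and Plxnd1 were above 0 in 9, 5 and 10 libraries and in none from Glom. Sema3g, a class 3 semaphorin made by podocytes and endothelium, had a value in 2 of 24 Glom libraries, of 1712 and 1537 FPKM, and was listed at 0 in the other 22. Sema4d was above 0 in 12 Glom libraries and 1 SCN library. Efnb1 was at 0 in all 24 Glom libraries and above 0 in 19 of 24 cortex libraries. No level can be given for a gene where it is listed at 0.

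The 2 nerve tissues and the 2 kidney tissues were compared in the db/+ libraries. Between SCN and DRG, 18 of 22 guidance genes tested differed, beside 79% of all genes tested, and between cortex and Glom 19 of 26, beside 75.5%. Both shares were near those of all genes. In DRG, 5 were higher and 13 lower than in SCN, beside 28% and 51% of all genes, and in Glom 15 were higher and 4 lower than in cortex, beside 52.2% and 23.3%. These splits changed with the scaling. The median of all genes was -0.33 and 0.33 and became -0.04 and 0.03 after median-of-ratios rescaling, with 7 higher and 11 lower in DRG and 12 higher and 6 lower in Glom. The shares of higher calls over all genes went from 35.4% to 49.5% for DRG and from 69.2% to 52.3% for Glom, and after quantile normalization they were 58.2% and 55.9%. Plxna4, a plexin of sensory and sympathetic neurons that transmits class 3 semaphorin signals, was higher in DRG by 2.88 ± 0.11 (log2, SE, adjusted p = 9.83e-16). Unc5c, a repulsive netrin receptor, was higher there by 1.46 ± 0.10 (adjusted p = 2.70e-09). The filter on low values counted the db/+ libraries of all 4 tissues together here, so that a gene could pass through the tissue where it was high. Unc5c reached 1 FPKM in 6 DRG db/+ libraries, and its SCN values over the 4 arms had a median of 0.08 FPKM. The route was not computed for these comparisons, and their counts are a description only. Ntn1, by contrast, was lower in DRG by a log2 difference of -3.44 ± 0.35 (adjusted p = 9.13e-09). In Glom, Ephb1 was higher than in cortex by 3.95 ± 0.10 (adjusted p = 5.63e-19) and Sema7a, a membrane-anchored semaphorin, by 1.88 ± 0.22 (adjusted p = 3.33e-06). Sema3c differed by -3.03 ± 0.35 (adjusted p = 9.08e-08) and Epha1 by -1.82 ± 0.18 (adjusted p = 2.16e-08), both being higher in cortex. The adjusted p-values here and below are Benjamini-Hochberg values over all genes tested.

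The question for diabetes was which guidance genes differed between db/+ and db/db mice. In Glom, 11 of 23 tested did, and 25.4% of all genes tested were called. Higher in db/db were 10 of them and Ephb1 was lower, beside 16.5% of all genes higher and 8.91% lower. The median log2 difference was 0.39 over the 23 guidance genes and 0.04 over all genes. Efna4, Slit2 and Efna3 differed most. Among ligands, 3 of 4 ephrins, 3 of 4 semaphorins and 1 of 2 Slits rose, and among receptors 3 of 9 Eph receptors rose and 1 fell, while 0 of 3 plexins were called by limma, and 0 of them had an unadjusted p under 0.05.

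The share of guidance genes called in Glom needs 2 facts beside it. Of the 11, Efna3, Epha1, Ephb2, Sema3c and Slit2 passed the filter on low values only through the db/db libraries. They were tested only because db/db libraries, in which they were high, reached 1 FPKM. The counts and medians over the tested genes are therefore a description only. Markers of other cells also differed in level. All 8 distal nephron and collecting duct markers tested of 20 were higher in Glom db/db, with a median log2 difference of 2.71. Whether markers passed the filter only through the db/db libraries was not looked at, so that counts of markers are a description only as well. The values above 0 in this list summed to 26.3 to 338 FPKM in db/+ and 102 to 624 in db/db, and with pioglitazone to 23.5 to 267 in db/+ and 23.9 to 97.9 in db/db. These sums are over different genes, since 8 to 15 of the 20 markers were above 0 in a db/+ library, 5 to 9 in a db/db library, and 9 to 16 and 9 to 18 in the pioglitazone groups. Krt18, an epithelial keratin of this list, ran from 0.30 to 7.49 FPKM in db/+, 13.3 to 24.4 in db/db and, after pioglitazone, 0.14 to 5.44, with no overlap between db/db and the rest. Umod, Slc12a3, Aqp2 and Cdh16, also of this list, were listed at 0 in every Glom db/db library, so that no level can be given for them there. All 5 fibroblast and perineurial markers tested of 10 were also higher, among them Col1a1, Col3a1 and Dcn. The podocyte gene Nphs1 was listed at 0 in all 24 Glom libraries. The part of these cells in the result was not tested, and in bulk tissue fewer cells of a type and less RNA per cell cannot be told apart.

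The 3 genes with the largest rise in Glom are printed with the 250 bases before their transcription start, to show what lies ahead of genes that moved together. The sequences are from RefSeq (GRCm38.p6, a later build than the mm9 of the files), which held such an entry for 53 of the 60 genes. Capitals mark matches to a GC box (GGGCGG) or a TATA motif (TATAAA), and the nuclear receptor half-site AGGTCA and the E-box CACGTG were also searched, all on both strands. Efna4 lies at chr3:89338029-89338278 (minus strand), Efna3 at chr3:89322940-89323189 (minus strand) and Slit2 at chr5:47982905-47983154 (plus strand).
Efna4: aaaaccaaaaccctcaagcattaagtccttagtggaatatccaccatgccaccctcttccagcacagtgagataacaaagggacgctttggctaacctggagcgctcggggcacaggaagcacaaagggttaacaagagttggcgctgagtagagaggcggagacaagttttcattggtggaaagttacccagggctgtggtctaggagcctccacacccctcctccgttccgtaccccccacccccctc
Efna3: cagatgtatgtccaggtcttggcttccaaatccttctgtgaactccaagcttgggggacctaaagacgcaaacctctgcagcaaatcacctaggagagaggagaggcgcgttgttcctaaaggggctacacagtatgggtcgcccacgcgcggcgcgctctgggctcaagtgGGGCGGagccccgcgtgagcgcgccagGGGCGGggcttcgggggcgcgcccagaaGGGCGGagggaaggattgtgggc
Slit2: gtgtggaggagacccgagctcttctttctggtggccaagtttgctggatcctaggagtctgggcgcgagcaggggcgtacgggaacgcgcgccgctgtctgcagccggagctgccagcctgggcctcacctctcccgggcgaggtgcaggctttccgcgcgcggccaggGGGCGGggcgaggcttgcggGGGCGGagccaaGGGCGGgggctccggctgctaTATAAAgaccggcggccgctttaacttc
Efna3 and Slit2 each held 3 GC boxes, a motif found in 32.7% of 32851 promoter windows of this length, and Slit2 also held 1 TATA motif, found in 12.4%. The Efna4 window held none of the 4 motifs. AGGTCA and CACGTG, found in 14.0% and 6.02% of all windows, occurred in none of the 3. Efna3 and Slit2 were GC-rich, with 63.6% and 69.6% G or C against 54.4% in Efna4 and a median of 52.4% over all windows.

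Efna4 and Efna3 encode ephrins anchored in the membrane by a lipid, which bind mainly EphA receptors. They are neighbours on chromosome 3, where mm9 places Efna1 from 89075655 to 89085064, Efna3 from 89117821 to 89126887 and Efna4 from 89137312 to 89141950, all on the minus strand. Efna4 was at 0.89, 1.27 and 3.48 FPKM (lowest, median and highest) in Glom db/+ and at 4.96, 7.12 and 8.34 in db/db, which rose by 1.69 ± 0.25 (log2, SE, n = 6 and 6, adjusted p = 5.59e-05 in limma). Every db/db library lay above every db/+ library. Efna3 was at 0.18, 0.43 and 0.55 in the 5 db/+ libraries with a value and at 2.23, 2.59 and 3.55 in the 4 of db/db, a rise of 1.42 ± 0.20 (adjusted p = 7.19e-05) and 7.02 times the mean FPKM. These groups did not overlap either. Efna1, the third gene of the cluster and a ligand of EphA2, was at 12.4 to 29.9 in db/+ and 23.4 to 34.9 in db/db and was not called (0.37 ± 0.27, adjusted p = 0.335). Efna5, on chromosome 17, was at 0.71, 1.09 and 2.18 in db/+ and 1.77, 1.94 and 2.24 in db/db, overlapping through a single db/+ library, and rose by 0.44 ± 0.12 (adjusted p = 0.0103). The exons of Efna3 and Efna4 overlap those of antisense genes (Gm15998 and 4731419I09Rik), and the library kit does not mark strand, so that reads of the pairs cannot be told apart.

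Slit2, on chromosome 5 from 48374394 to 48697521, is a secreted repellent that binds Robo receptors. It was at 0.17, 0.31 and 1.03 FPKM in Glom db/+ (n = 5) and 2.29, 2.79 and 3.40 in db/db (n = 4), and rose by 1.44 ± 0.20 on the log2 scale (adjusted p = 8.11e-05), with no overlap. No Robo receptor passed the filter in Glom, so its receptor could not be compared there. Sema3c, a secreted semaphorin that binds neuropilins and plexins, was at 0.08, 0.30 and 2.36 in db/+ and 1.13, 1.87 and 2.81 in db/db and rose by 0.87 ± 0.22 (adjusted p = 0.00528). All but 1 of its db/+ libraries were below the lowest db/db library. Sema6b, a transmembrane semaphorin, rose by 0.67 ± 0.19 (adjusted p = 0.0120), from a median of 2.52 to 4.89 FPKM with overlapping ranges. Sema4b, also a transmembrane semaphorin, rose by 0.42 ± 0.09 (adjusted p = 0.00275), from 4.97 to 6.40 FPKM in db/+ to 6.99 to 9.79 in db/db, without overlap. Sema3d was below 1 FPKM in every Glom library and was not tested there. Sema4d, an immune semaphorin, had values in 2 db/+ libraries, 3 db/+ PIO libraries, 1 db/db library and 6 db/db PIO libraries of Glom. It could not be compared for diabetes here. The study of these data, which called genes by Cuffdiff on aligned reads, listed Sema4d as higher in Glom db/db and lower with pioglitazone.

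Among the receptors, Ephb2, which binds B-type ephrins, was at 0.05, 0.16 and 2.60 FPKM in Glom db/+ and 1.25, 1.37 and 1.62 in db/db, and rose by 0.77 ± 0.23 (adjusted p = 0.0174). Epha1 was at 0.49 to 1.94 in the 4 db/+ libraries with a value and 1.53 to 2.25 in db/db, and rose by 0.63 ± 0.18 (adjusted p = 0.0154), a call lost without db/+ replicate 1 or 4. Its exons overlap those of Zyx on the other strand. In both genes 1 db/+ library was as high as the db/db libraries, and it was the same library. Glom db/+ replicate 2 held the group's highest Krt18 (7.49 FPKM) and, for 6 of the 9 called guidance genes with a value in it, the group's highest value, among them Efna4 (3.48), Sema3c (2.36), Ephb2 (2.60) and Epha1 (1.94). The same count in the library with the highest Krt18 was 3 of 10 in db/+ PIO, 0 of 10 in db/db and 1 of 8 in db/db PIO. In db/+ PIO the highest Krt18 (7.01 FPKM, replicate 5) was close to that of replicate 1 (6.96). The genes counted include Ephb1, which was lower in db/db. What these counts say of epithelial cells was not tested. Without Glom db/+ replicate 2 the calls of all 11 genes remained but for Ephb6. Ephb6, an Eph receptor without kinase activity, rose by 0.37 ± 0.13 (adjusted p = 0.0408), and its call was lost in 8 of 24 fits that left out 1 library.

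Ephb1 went the other way. It was at 16.7, 24.5 and 26.3 FPKM in Glom db/+ (n = 5) and 7.55, 12.0 and 16.0 in db/db (n = 5), and fell by 0.87 on the log2 scale (SE 0.18, adjusted p = 0.00214), to 0.535 of the mean. The groups did not overlap. Its exons overlap those of the antisense gene Gm17708. The plot of single libraries shows Ephb1 beside the genes that rose.

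**Figure D2:**
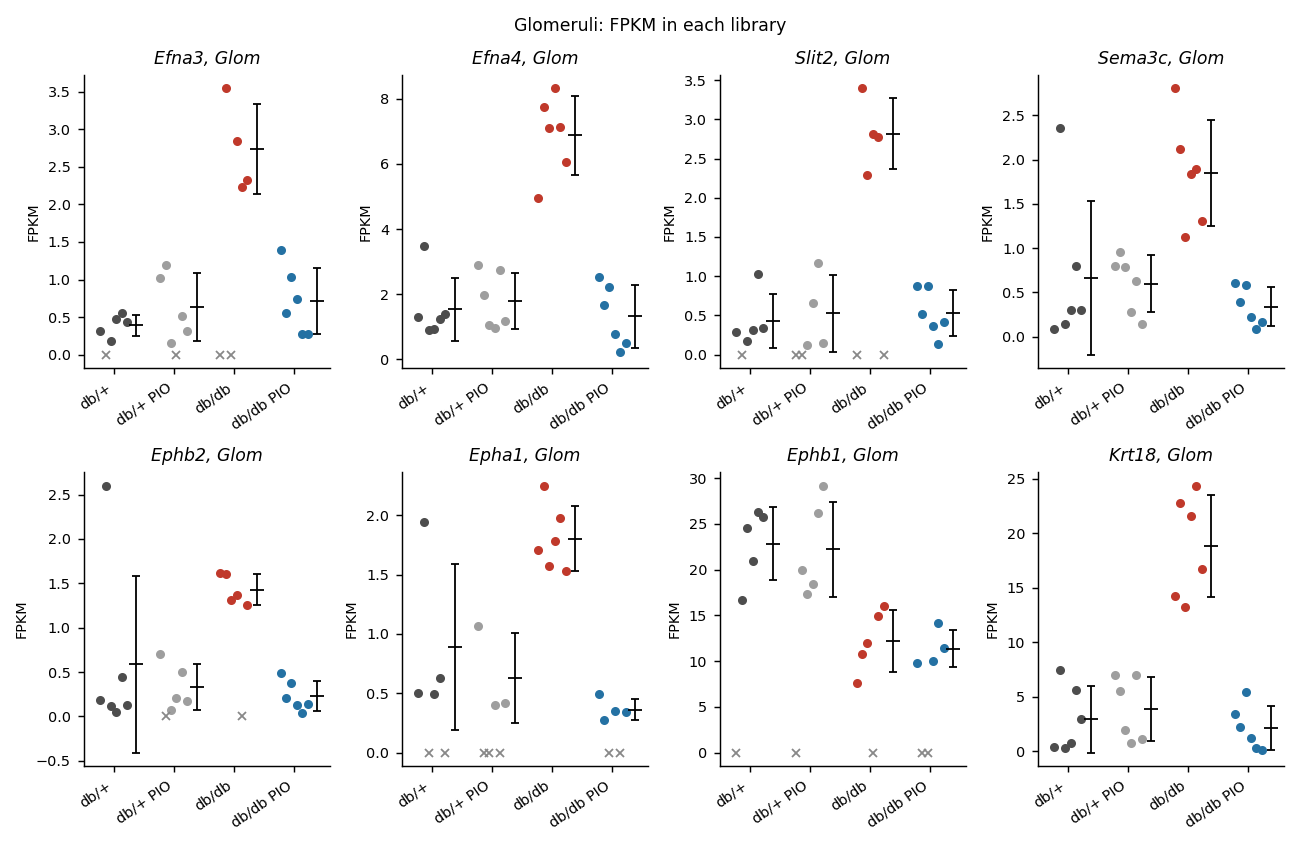
FPKM of 7 axon guidance genes and of the keratin Krt18 in each Glom library, by group, with crosses for entries listed at 0 and the mean ± SD of the values above 0 beside each group. Efna3, Efna4 and Slit2 in db/db sit above all other groups, Ephb1 is lower in db/db and db/db PIO than in both db/+ groups, and Krt18 shows the pattern of the genes that rose.

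The second question was what pioglitazone changed in db/db mice. In Glom, 10 of 19 guidance genes tested differed between db/db and db/db PIO, and 23.1% of all genes tested were called. All 10 were lower with the drug, beside 15.9% of all genes lower and 7.19% higher. The median difference was -0.46 over the 19 genes and -0.04 over all genes. Both comparisons use the db/db libraries, so that a high db/db value enters each with opposite sign. Of the 10 genes, 6 had passed the filter only through the db/db libraries (Efna3, Epha1, Ephb2, Ephb3, Sema3c and Slit2).

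Efna4 was at 0.23, 1.22 and 2.53 FPKM in db/db PIO and fell by 1.86 on the log2 scale (SE 0.25, adjusted p = 2.92e-05), to 0.192 of the db/db mean. Slit2 was at 0.14, 0.47 and 0.88 and fell by 1.33 (SE 0.20, adjusted p = 0.000154). Efna3 was at 0.28, 0.65 and 1.39 and fell by 1.15 (SE 0.20, adjusted p = 0.00043). In these 3 genes no db/db PIO library reached the lowest db/db library. Sema3c was at 0.08, 0.31 and 0.60 and fell by 1.08 (SE 0.22, adjusted p = 0.00129). Epha1 was at 0.27 to 0.49 in the 4 libraries with a value and fell by 1.04 (SE 0.18, adjusted p = 0.000672). Ephb2 was at 0.04, 0.18 and 0.49 and fell by 0.99 (SE 0.23, adjusted p = 0.00411). These 3 did not overlap the db/db group either, though overlap was looked at in called guidance genes only and not over all genes. Efna5 fell by 0.57 (SE 0.12, adjusted p = 0.00197) and Ephb3, a receptor of B-type ephrins, by 0.54 (SE 0.17, adjusted p = 0.0230), both without overlap. Ephb6 fell by 0.41 and Sema4b by 0.32, with calls lost in 5 of 24 fits each when 1 library was left out, and that of Ephb3 was lost without db/db replicate 1 or 2.

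Ephb1, lower in db/db, was at 9.76, 10.7 and 14.2 FPKM in db/db PIO (n = 4) and was not called (-0.07 ± 0.19, adjusted p = 0.827). Between the 2 pioglitazone groups it was the only guidance gene called of 20 tested in Glom, where 8.41% of all genes were, at -0.90 ± 0.19 (log2, SE, adjusted p = 0.00751). Plxna2, a plexin of class 3 and class 6 semaphorins, had a positive difference of 0.68 ± 0.23 with pioglitazone in db/db that missed the threshold (adjusted p = 0.0502) and passed it after median-of-ratios rescaling. The same 8 distal nephron and collecting duct markers that were higher in db/db were lower in db/db PIO, with a median of -2.83. Their part in the fall of the guidance genes was not tested. The macrophage markers C1qa, C1qb and C1qc and the fibroblast markers Col1a1, Col3a1 and Dcn were lower as well.

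**Figure D3:**
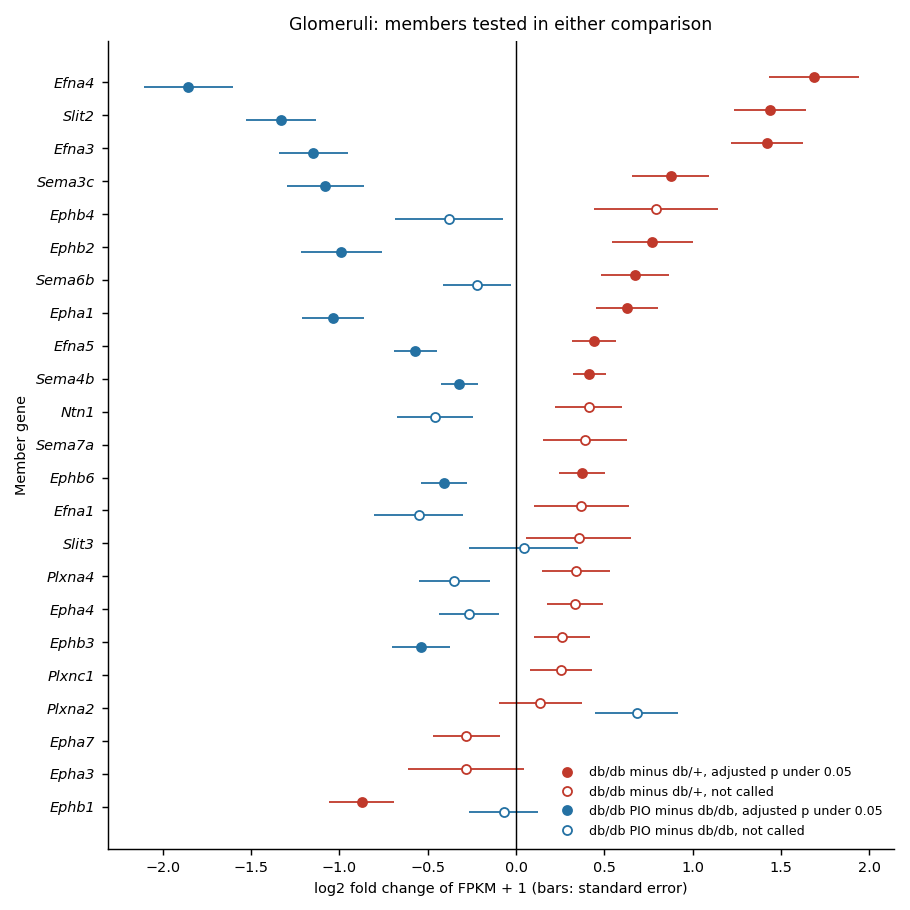
Log2 fold change of FPKM + 1 with its standard error for every axon guidance gene tested in Glom, for db/db minus db/+ (red) and db/db PIO minus db/db (blue), with filled points where the adjusted p was under 0.05. All 10 blue filled points lie below 0 and 10 of 11 red filled points above it, and both contrasts share the db/db libraries.

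Scaling bore on the direction of the calls in Glom. Of all genes called between db/+ and db/db, 64.9% were higher in db/db as deposited, 36.4% after median-of-ratios rescaling, which moved the median of all genes from 0.04 to -0.10, and 55.1% after quantile normalization. Between db/db and db/db PIO the shares higher were 31.1%, 68.2% and 37.7%. Of the guidance genes, 8 were called higher and 1 lower in db/db after median-of-ratios rescaling and 4 higher and 1 lower after quantile normalization. With pioglitazone 8 were lower and 1 higher, and then 7 lower. Efna3, Efna4, Sema3c and Slit2 rose and fell, and Ephb1 was lower in db/db, under both rescalings. With each 0 entered as a value, 2 calls were left for diabetes and 3 for pioglitazone, those of Efna4 and Epha1, and with pioglitazone also Sema3c.

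Whether pioglitazone acted differently in the 2 genotypes was tested by their interaction, the drug's difference in db/db minus that in db/+. In Glom it was called for 5 of 18 guidance genes, where 9.71% of all genes were called. Of the 5, Efna3, Sema3c and Slit2 passed the filter only through the db/db libraries, in which they were high, so that this count is a description only. It was -2.01 ± 0.36 for Efna4 (log2, SE, adjusted p = 0.00138), -1.40 ± 0.28 for Slit2 (adjusted p = 0.00502), -1.35 ± 0.27 for Efna3 (adjusted p = 0.00473), -1.12 ± 0.31 for Sema3c (adjusted p = 0.0240) and -0.45 ± 0.14 for Sema4b (adjusted p = 0.0485). The call of Sema4b was lost in 18 of 24 fits without 1 library, and under both rescalings. Over all genes 17.6% of the calls were positive, 54.6% after median-of-ratios rescaling and 30.1% after quantile normalization. In DRG 0 of 18 and in cortex 0 of 21 guidance genes had a called interaction in limma, beside 0% and 0.031% of all genes, and 4 and 2 had an unadjusted p under 0.05. In db/+ mice pioglitazone changed no guidance gene past the threshold in any tissue by limma, of 19 to 24 tested, where 0.0778% of all genes were called in SCN, 0.025% in cortex and 0% in DRG and Glom. At an unadjusted p under 0.05 there were 4 guidance genes in SCN, 3 in DRG, 0 in Glom and 1 in cortex.

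In SCN, 4 of 21 guidance genes tested differed between db/+ and db/db, where 14.9% of all genes did. In db/db 2 were higher and 2 lower, beside 7.63% and 7.28% of all genes. Sema4b was at 2.99, 4.03 and 5.44 FPKM in db/+ (n = 5) and 6.34, 6.89 and 7.78 in db/db (n = 5), and rose by 0.66 ± 0.09 (log2, SE, adjusted p = 9.67e-05). Sema6b was at 5.08, 5.93 and 7.05 in db/+ and 7.86, 8.25 and 9.61 in db/db (n = 5), and rose by 0.45 ± 0.10 (adjusted p = 0.00743). Both semaphorins had also risen in Glom. Efnb2, the ligand of EphB4 and a marker of arterial endothelium, was at 6.05, 7.09 and 8.32 in db/+ and 3.93, 4.89 and 5.05 in db/db (n = 5), and fell by 0.50 (SE 0.12, adjusted p = 0.00801). Ntn4 was at 7.58, 15.4 and 32.7 in db/+ (n = 5) and 4.82, 5.85 and 7.34 in db/db, and fell by 1.30 (SE 0.36, adjusted p = 0.0218). In none of the 4 did the groups overlap, which was looked at in called guidance genes only and not over all genes. The call of Ntn4 was lost without SCN db/+ replicate 1 or 4, and its control values fell into 2 sets, at 15.4 to 32.7 in replicates 1, 2 and 4 and at 9.09 and 7.58 in replicates 5 and 6. After quantile normalization, which moved the median of all genes from 0.02 to 0.51 and the share of higher calls from 51.2% to 97.8%, neither fall was called and 10 guidance genes were called higher. Sema4b and Sema6b were among them.

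SCN db/+ replicates 5 and 6 stood apart from the other 4 control libraries in several guidance genes, Ntn4 included. Ntn1 was at 29.6 to 44.0 FPKM in replicates 1 to 4 and at 8.64 and 6.86 in replicates 5 and 6. Sema3c was at 4.40 to 11.5 against 2.09 and 1.87, and Ephb2 at 5.32 to 5.98 in the 3 with a value against 2.13 and 2.60. Sema3d was at 9.96 and 6.73 in replicates 1 and 2 against 1.30 and 1.01, and was listed at 0 in the remaining pair. Cldn1, a tight junction protein of the perineurium, moved with them, at 52.7 to 84.3 FPKM against 16.7 and 13.8, and was 6.58 to 23.9 in db/db. Over the marker list Cldn1 belongs to, 5 of 10 genes were above 0 in SCN db/+, and the values above 0 summed to 49.3 to 2722 in db/+ and 189 to 987 in db/db, over 3 markers in each db/+ library and 2 to 5 in a db/db library, which were not the same genes throughout. Mbp, a myelin protein of Schwann cells, was at 10695 to 13038 FPKM in db/+ and 8370 to 11059 in db/db, with overlap between the groups, and fell by 0.31 in db/db (log2, SE 0.09, limma, adjusted p = 0.0279). The part of these cells was not tested.

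As tested on all 6 control libraries, Ntn1 (-1.09 ± 0.40, log2, SE, adjusted p = 0.0700), Sema3d (-1.11 ± 0.50, adjusted p = 0.143), Sema3c (-0.57 ± 0.31, adjusted p = 0.221) and Ephb2 (-0.48 ± 0.22, adjusted p = 0.155) did not pass in SCN. The study, by Cuffdiff, called Sema3d, Sema3c and Ephb2 lower in SCN db/db. Without replicates 5 and 6, a setting added after the data were seen, the differences were -1.76 ± 0.30 for Ntn1, -1.03 ± 0.23 for Sema3c and -0.88 ± 0.17 for Ephb2. These are given with no test, since both libraries were low in these genes and leaving them out can only enlarge such a fall. Sema4b, Sema6b and Efnb2 kept their calls. Ntn1 also passed after median-of-ratios rescaling of all 6. The labels do not say how the 2 sets of controls differ. The plot of SCN libraries shows the split in Ntn1, Sema3c, Ephb2 and Cldn1.

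**Figure D4:**
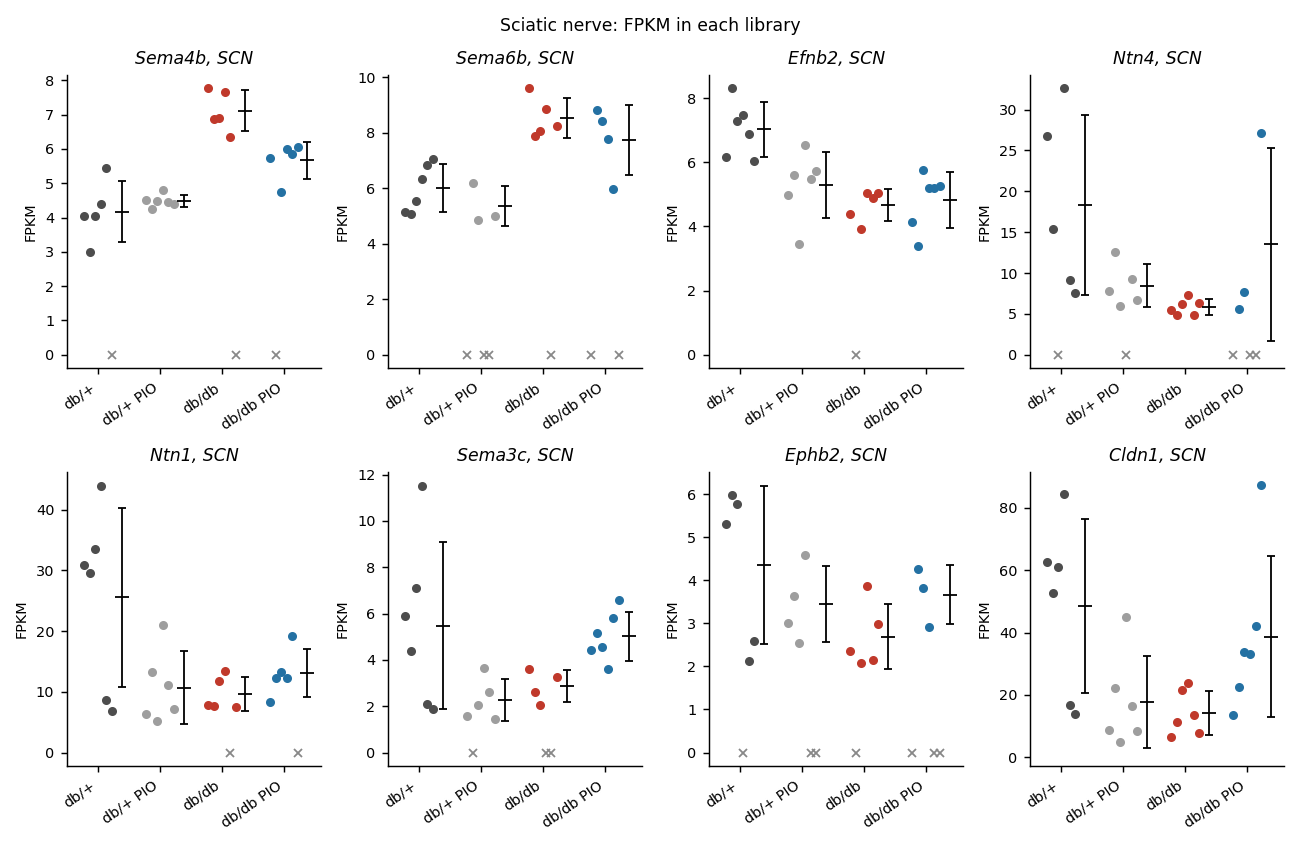
FPKM of 7 axon guidance genes and of Cldn1 in each SCN library, by group and in replicate order from left to right, with crosses for entries listed at 0 and the mean ± SD of the values above 0. Sema4b and Sema6b in db/db lie above db/+, Efnb2 and Ntn4 below it, and the last 2 db/+ points are low in Ntn1, Sema3c, Ephb2 and Cldn1.

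Pioglitazone in db/db changed no guidance gene in SCN past the threshold, of 23 tested, where 10.1% of all genes were called by limma. At an unadjusted p under 0.05 there were 4, and 2 passed when only the 2 groups were in the fit. Sema4b was at 4.74, 5.85 and 6.06 FPKM in db/db PIO (n = 5), below all db/db values. Sema3d, at 0.48 to 1.89 without and 1.16 to 10.9 with the drug, differed by 1.00 ± 0.45 (log2, SE, adjusted p = 0.166). By Cuffdiff, the study called Sema3d, Sema3c, Ephb2 and Sema4d in SCN for diabetes and, in the opposite direction, for pioglitazone in db/db. Between the 2 pioglitazone groups 8 of 26 were called, near the 33.8% of all genes, with 5 higher and 3 lower in db/db PIO beside 20.6% and 13.2%. Among ligands Sema3c (0.90 ± 0.29, adjusted p = 0.0204), Slit3 (0.54 ± 0.13, adjusted p = 0.0046), Sema6b and Sema4b were higher in db/db PIO, as was the netrin receptor Unc5b. The receptors Ephb3 (-0.63 ± 0.17, adjusted p = 0.00829), Epha4 and Ephb1 were lower. The call of Sema3c was lost without db/+ PIO replicate 1 or 6 and that of Epha4 without db/db PIO replicate 3 or 5. Of all genes called 61.1% were higher in db/db PIO, 44.1% after median-of-ratios rescaling and 86.0% after quantile normalization, with 3 guidance genes higher and 3 lower and then 2 higher. The interaction was called for Sema3c alone of 20 tested, beside 6.23% of all genes, at 1.47 ± 0.42 (adjusted p = 0.0418). That call was lost in 16 of 24 fits without 1 library, and without control replicates 5 and 6, which are low in Sema3c, the estimate was 1.94.

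The effects in Glom and SCN were set against each other in one fit. The difference between them for diabetes was called for 5 of 13 guidance genes, beside 15.5% of all genes, and for pioglitazone in db/db for 4 of 12, beside 20.7%. All 5 differences for diabetes were positive, beside 9.73% positive and 5.72% negative over all genes, and all 4 for pioglitazone negative, beside 4.95% and 15.8%. Sema3c and Ephb2, which are in both sets, passed the filter in Glom only through the db/db libraries, in which they were high. The counts and directions are therefore a description only, and these differences were not refitted with each library left out. For diabetes, Efna4 differed by 1.79 ± 0.24 (log2, SE, adjusted p = 2.26e-08), being at 0.60 to 1.90 FPKM in SCN db/+ and 0.71 to 1.41 in SCN db/db. Ntn1 (1.50 ± 0.41, adjusted p = 0.00676), Sema3c (1.44 ± 0.37, adjusted p = 0.0034), Ephb2 (1.25 ± 0.30, adjusted p = 0.00151) and Epha4 (0.65 ± 0.19, adjusted p = 0.00953) differed likewise, with positive estimates in Glom and negative ones in SCN. The SCN estimates of these 5 were not called in SCN itself, and those of Ntn1 and Epha4 were not called in Glom either. The 2 sets of SCN db/+ libraries described above enter the differences of Ntn1, Sema3c and Ephb2. For pioglitazone, the differences were -1.86 for Efna4, -1.71 for Sema3c, -1.34 for Ephb2 and -0.73 for Efna5 (adjusted p = 1.30e-08, 0.000274, 0.00117 and 0.00294). All 9 differences were also called under both rescalings. The share of higher calls over all genes was 63.0% for diabetes as deposited, 73.1% after median-of-ratios rescaling and 34.7% after quantile normalization, and 23.9% and then 60.5% after quantile normalization for pioglitazone.

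In DRG, 1 of 20 guidance genes differed between db/+ and db/db, where 4.13% of all genes did. This was Unc5c, at 2.09, 2.35 and 2.56 FPKM in db/+ and at 1.42, 1.27, 1.46 and 1.46 in the 4 db/db libraries with a value, the remaining one being at 0. It fell by 0.48 on the log2 scale (SE 0.11, adjusted p = 0.0169), to 0.597 of the mean, and the groups did not overlap. In db/+ PIO it was at 1.12 to 2.50 and in db/db PIO at 1.44 to 2.02. Pioglitazone in db/db changed 0 of 22 by limma, where 0% of all genes were called and 3 guidance genes had an unadjusted p under 0.05. Between the 2 pioglitazone groups 0 of 22 were called, beside 8.64% of all genes, and 5 had an unadjusted p under 0.05. The fall of Unc5c was not called after quantile normalization (adjusted p = 0.273). Beside it, the macrophage markers C1qc, Cd163, Csf1r and Mrc1 were higher in DRG db/db, 4 of 8 tested of 12, and the skeletal muscle markers above 0 summed to 4.42 to 144 FPKM in db/+, over 9 to 12 of 16 markers, and 3.46 to 678 in db/db, over 10 to 13. Of 15 sensory neuron markers, 1 to 5 were above 0 in a db/+ library and 0 to 4 in a db/db library, so that no level of this list can be compared. Their part in the result was not tested.

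In cortex, 2 of 25 differed between db/+ and db/db, where 10.3% of all genes did. Both belong to the ephrin cluster on chromosome 3. Efna3 was at 0.11, 0.50 and 0.56 FPKM in db/+ and 0.71, 1.26 and 1.63 in db/db and rose by 0.63 ± 0.15 (log2, SE, adjusted p = 0.00926), without overlap. It reached 1 FPKM in 0 libraries of db/+, 1 of db/+ PIO, 5 of db/db and 5 of db/db PIO. Efna3 thus passed the filter only through the diabetic groups, in which it was high, so that its call is a description only. Efna1 was at 22.8, 26.1 and 30.0 in db/+ (n = 4) and 15.5, 16.8 and 23.3 in db/db (n = 5) and fell by 0.51 (SE 0.11, adjusted p = 0.00444), with 1 db/db library inside the db/+ range. Efna4 between them was at 1.08 to 1.75 and 1.21 to 2.33 and was not called (0.31 ± 0.13, adjusted p = 0.169). Both calls were lost after quantile normalization.

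Pioglitazone in db/db changed 1 of 24 in cortex, where 3.24% of all genes were called. Epha2, an Eph receptor of epithelium, was at 1.06, 1.78 and 2.16 FPKM in db/db (n = 5) and 2.33, 3.07 and 4.17 in db/db PIO (n = 5), and rose by 0.66 ± 0.14 (adjusted p = 0.0164), without overlap. Slit2 followed with 1.09 ± 0.28 (adjusted p = 0.0538), from 3 db/db libraries at 0.37 to 2.36 to 4 db/db PIO libraries at 3.63 to 4.11, and did not pass. Between the 2 pioglitazone groups 5 of 21 were called, beside 19.7% of all genes. All 5 were higher in db/db PIO, as were 7.09% of all genes, whereas 12.6% were lower. Sema3g was at 6.48 to 19.6 in db/+ PIO (n = 3) and 24.7 to 30.7 in db/db PIO (n = 4), a difference of 1.25 ± 0.26 (adjusted p = 0.00287). Sema4b was at 2.81 to 4.54 and 5.63 to 7.09, a difference of 0.61 ± 0.16 (adjusted p = 0.00776). Neither overlapped. Efna3 (0.48), Epha2 (0.47) and Ephb4 (0.29) were called too, with overlap, and of these Efna3 was lost in 6 of 24 fits without 1 library, Ephb4 in 4 and Epha2 in 3. Here too Efna3 had passed the filter only through the diabetic groups, so that the count of 5 is a description only. The exons of Ephb4 overlap those of Zan on the other strand. Of all genes called between the pioglitazone groups 36.0% were higher in db/db PIO, 50.1% after median-of-ratios rescaling and 23.0% after quantile normalization, with 7 guidance genes and then 1 called, all higher. For pioglitazone in db/db these shares were 17.5%, 48.5% and 12.5%, and Epha2 was not called after quantile normalization (adjusted p = 0.284). Beside these results, 3 of 4 macrophage markers tested in cortex were lower in db/db than in db/+ (C1qa, Emr1 and Lyz2), 4 of 6 were lower in db/db PIO than in db/db, and 5 of 6 were lower in db/db PIO than in db/+ PIO, with a median of -1.31. Their part in the results was not tested.

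**Figure D5:**
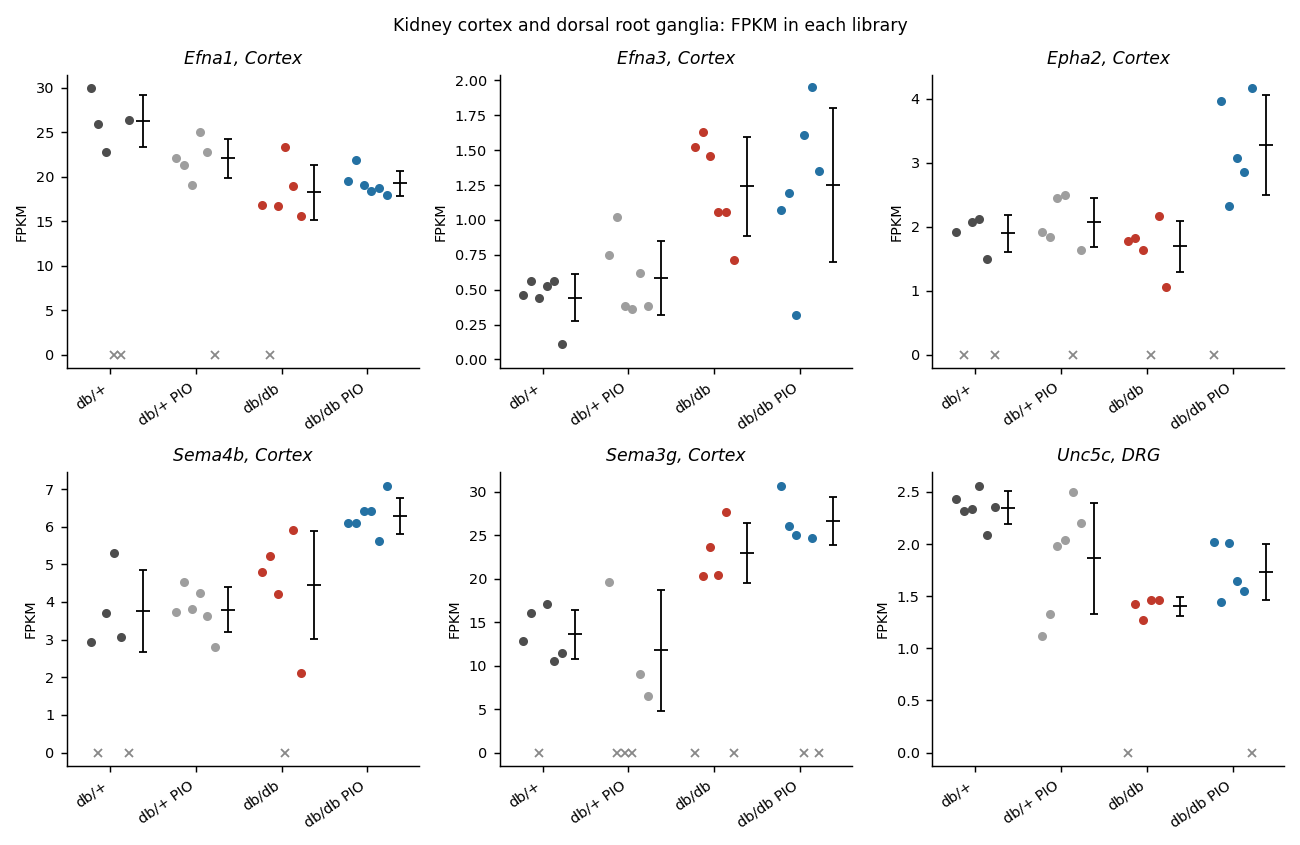
FPKM of 5 axon guidance genes in each cortex library and of Unc5c in each DRG library, by group, with crosses for entries listed at 0 and the mean ± SD of the values above 0. Efna3 in cortex db/db lies above db/+, Epha2 and Sema4b have their highest median in db/db PIO, and Unc5c in DRG db/db lies below db/+.

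Genes that act beside these ligands and receptors were counted from the same fits. A list of 31 co-receptors and other cues (neuropilins, glypicans, syndecans, Nogo receptors and the like) had 8 tested in Glom for diabetes, of which 0 were called by limma, beside 25.4% of all genes, and 1 had an unadjusted p under 0.05. For pioglitazone in db/db 2 of 10 were called, beside 23.1%. Of those, Gpc1, a glypican that binds Slits, was higher in db/db PIO by 0.67 ± 0.18 (log2, SE, adjusted p = 0.0200) and the Nogo receptor homologue Rtn4rl2 by 0.73 ± 0.25 (adjusted p = 0.0474). In SCN, 2 of 11 were called for diabetes, beside 14.9% of all genes, both lower in db/db. Ngfr, the p75 neurotrophin receptor of Schwann cells, fell by 0.65 (SE 0.17, adjusted p = 0.0175) and the syndecan Sdc2 by 0.82 (SE 0.17, adjusted p = 0.0044). In cortex 1 of 7 was called, beside 10.3% of all genes, Sdc3, which fell by 0.51 (SE 0.15, adjusted p = 0.0263), and in DRG 0 of 8 by limma, beside 4.13%, with 2 at an unadjusted p under 0.05. For pioglitazone in db/db 0 of 10 were called in SCN, 0 of 8 in DRG and 0 of 7 in cortex by limma, beside 10.1%, 0% and 3.24% of all genes, with 2, 1 and 2 at an unadjusted p under 0.05.

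Of 67 genes of intracellular guidance signalling, 12 were tested in Glom for diabetes and 1 was called, beside 25.4% of all genes. This was Ngef, the exchange factor ephexin that acts below EphA receptors, which rose by 1.22 ± 0.34 (log2, SE, adjusted p = 0.0111) and fell by 1.58 with pioglitazone in db/db (SE 0.35, adjusted p = 0.00313). It was the sole call of 11 in that comparison, beside 23.1%. Whether Ngef passed the filter only through the db/db libraries was not looked at. In SCN 1 of 9 was called for diabetes, beside 14.9%, Rnd3, an atypical small GTPase that acts on the actin cytoskeleton, which fell by 0.59 (SE 0.08, adjusted p = 5.20e-05). In DRG 1 of 11 was called, beside 4.13%, Pdzrn3, which rose by 0.41 ± 0.08 (adjusted p = 0.00416), and in cortex 1 of 12, beside 10.3%, Dpysl3, a collapsin response mediator, which fell by 0.73 (SE 0.15, adjusted p = 0.00161). For pioglitazone in db/db the small GTPase Rras fell by 0.42 in cortex (SE 0.10, adjusted p = 0.0308), 1 of 11 tested, beside 3.24% of all genes, and 0 of 8 in SCN and 0 of 13 in DRG were called by limma, beside 10.1% and 0%, with 1 each at an unadjusted p under 0.05.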

How the data were processed

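RNA-Seq libraries (TruSeq mRNA, no strand kept) were made from 4 tissues in 4 arms (each genotype, treated or not). Reads were mapped by the authors with TopHat to known mouse transcripts (mm9), and Cufflinks gave the FPKM. Cufflinks and mm9 also stand in the submitters' processing notes. No source used here gives tool versions. The deposited files hold 1 FPKM per gene symbol and library to 2 decimals, with no read counts, so depth per library is unknown and precision rests on the spread between libraries. The study called genes with Cuffdiff on aligned reads, a test that cannot be run on FPKM.

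An exact 0 was taken as missing. No 2 libraries held identical values. Tests were made on log2(FPKM + 1), a pseudocount of 1, by limma (3.58.1, R 4.3.3) with a variance trend, 1 fit per tissue holding its 4 arms. A gene was tested if 5 or more libraries of the tissue reached 1 FPKM and each group compared had 3 or more values. Tissues were compared in a fit of the db/+ libraries of all 4 tissues, where the 5 libraries at 1 FPKM were counted over the whole fit. Effects in Glom and SCN were compared in a fit of all libraries, where Glom and SCN each had to hold 5 such libraries. P-values were adjusted by Benjamini-Hochberg over all genes tested, with a threshold of 0.05. The fit was tested on simulated data. Whether libraries are separate mice is taken from the series' statement of biological replicates.

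The guidance genes, the gene lists and the comparisons were chosen with earlier results of these data known. Named are, for diabetes and for pioglitazone in db/db, guidance genes past the threshold with the same sign whichever library was left out (at most 10 per comparison, largest first), those called for the interaction or for the difference between Glom and SCN, the 5 with the highest median in db/+ of each tissue, and Sema3c, Sema3d, Sema4d and Ephb2, which the study names. Others were named after their values were seen. Gene coordinates are from GENCODE M1 on mm9, and promoters from RefSeq. Figures were drawn with matplotlib 3.10.9 in Python 3.11.15. Alternatives were a pseudocount of 0.1, no filter, each 0 entered as a value, median-of-ratios rescaling, quantile normalization, the replicate number as a block, at least 5 values per group, fits of only the 2 groups compared, each library left out and, added after the data were seen, 2 SCN db/+ libraries left out. Some markers of other cells are not reported here.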

Additional observations from a re-analysis of the deposited data

Results flagged for a closer look

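Single libraries far from the rest of their group by Dixon's test were looked for in 81 groups of values of the genes called, of which about 1 in 20 is expected to give one by chance, and 9 did. In Glom db/+, replicate 2 was the highest in Efna4 (3.48 FPKM), Epha1 (1.94), Ephb2 (2.60) and Sema3c (2.36), and replicate 5 in Slit2 (1.03). In Glom db/db, Ephb6 was highest in replicate 4 (3.30), and in Glom db/db PIO, Sema4b was highest in replicate 1 (6.60). The lowest values were Sema4b in SCN db/db PIO replicate 3 (4.74) and Efna3 in cortex db/+ replicate 6 (0.11).

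The effect of pioglitazone differed between genotypes, by an interaction in limma, for Efna4 (-2.01), Slit2 (-1.40), Efna3 (-1.35), Sema3c (-1.12) and Sema4b (-0.45) in Glom and for Sema3c (1.47) in SCN, on the log2 scale. In Glom, Slit2, Efna3 and Sema3c could be tested only because they were high in db/db, so that these 3 had passed the filter on low values through that group. Sema3c thus had interactions of opposite sign in the 2 tissues, and the difference between these interactions was not tested. The effect of diabetes differed between Glom and SCN for Efna4 (1.79), Ntn1 (1.50), Sema3c (1.44), Ephb2 (1.25) and Epha4 (0.65), and that of pioglitazone in db/db for Efna4 (-1.86), Sema3c (-1.71), Ephb2 (-1.34) and Efna5 (-0.73). Of these, Sema3c and Ephb2 had passed the filter in Glom only through the db/db libraries. Ntn1 and Epha4 were called for diabetes neither in Glom nor in SCN by itself.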

How the results depend on the processing

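Depth per library is unknown, and the results rest on reading a 0 as missing. The study gives the reads per tissue only, with the widest spread in SCN. The counts in this section are of guidance genes alone, since the share of all genes called was not computed for each setting. A change in a count can therefore not be told from a shift of all genes. With each 0 entered as a value, 67 of 95 calls were lost and 7 turned: Efna1 in cortex db/db (0.37), Efnb2 from SCN to DRG (-0.63), Epha4 (0.69) and Sema4b (-0.17) between the pioglitazone groups of SCN, Ephb4 between those of cortex (-0.35) and from cortex to Glom (-1.24), and Sema6b in SCN db/db (-0.089). For diabetes 2 guidance genes were then called in Glom and 0 in SCN, DRG and cortex, for pioglitazone in db/db 3 in Glom and 0 in cortex, between pioglitazone groups 0 in Glom, SCN and cortex, for the interaction 1 in Glom and 0 in SCN, for Glom minus SCN 2 and 1, from SCN to DRG 10 and from cortex to Glom 6. The cause was not tested for any of these changes.

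Quantile normalization gave 5 in Glom, 10 in SCN, 0 in DRG and 0 in cortex for diabetes, 0 in cortex for pioglitazone, 1 in cortex and 2 in SCN between pioglitazone groups, and 3 in Glom and 0 in SCN for the interaction. For diabetes in SCN it moved the median of all genes to 0.51, and 97.8% of all calls were higher. Median-of-ratios rescaling gave 2 for pioglitazone in cortex and 1 between pioglitazone groups in DRG. With no filter there were 7 for diabetes and 1 for pioglitazone in SCN, 0 for its interaction and 2 between pioglitazone groups in Glom. With at least 5 values per group, which tests fewer genes, there were 1 in cortex and 0 in DRG for diabetes, 6 for pioglitazone in Glom, 0 in Glom and 4 in SCN between pioglitazone groups, 2 in Glom and 0 in SCN for the interaction, 9 from SCN to DRG and 11 from cortex to Glom. With only the 2 groups in the fit there were 3 for diabetes in DRG, 0 in cortex and 2 in SCN for pioglitazone, and 8 between pioglitazone groups in cortex. A pseudocount of 0.1 lost 3 calls. Without SCN db/+ replicates 5 and 6, chosen after the data were seen for low values, which enlarges falls by construction, SCN had 8 for diabetes, 1 for pioglitazone in db/db, 3 for pioglitazone in db/+ and 6 for the interaction.

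Replicate numbers are shared between groups, and no source ties same-numbered libraries to one another. The median correlation of their deviations was -0.0007 in SCN, 0.060 in DRG, 0.120 in Glom and -0.007 in cortex, against 0.010, 0.006, -0.014 and 0.010 for other pairs, and was above 0.1 in 10 of 36, 15 of 33, 20 of 36 and 11 of 36 pairs, with 6 of 24, 3 of 23, 9 of 24 and 4 of 24 libraries correlating best with their own number. As not every pair was above 0.1 in any tissue, the numbers were not taken as a pairing. A rule on every pair cannot tell partial sharing from none, and same-numbered Glom libraries had the higher median. The replicate block gave 3 between pioglitazone groups in cortex, 1 for pioglitazone in SCN and 0 for the SCN interaction, and lost 4 of 95 calls. Leaving out 1 library at a time gave, for diabetes, 9 to 12 in Glom, 3 to 6 in SCN, 1 to 2 in DRG and 2 to 6 in cortex. For pioglitazone it gave 7 to 12 in Glom, 0 to 1 in SCN and 1 to 2 in cortex, and between pioglitazone groups 1 to 2 in Glom, 5 to 8 in SCN, 0 to 2 in DRG and 1 to 8 in cortex. For the interaction it gave 4 to 9 in Glom and 0 to 6 in SCN, from SCN to DRG 14 to 18 and from cortex to Glom 17 to 20.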
